A study of Mus musculus with 2 samples.

Results

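Cyclins are the regulatory subunits that switch cyclin-dependent kinases (CDKs) on at set points of the cell cycle, and CDK inhibitors hold those kinases in check. The genes described here are 10 of the 31053 genes counted in leukemia cells of mice, taken by symbol: the D-type cyclins Ccnd1, Ccnd2 and Ccnd3, the E-type cyclins Ccne1 and Ccne2, the S phase and mitotic cyclins Ccna2, Ccnb1 and Ccnb2, and the inhibitors Cdkn1b (p27) and Cdkn2c (p18). All 10 were found once in the gene list of each library. The cells came from leukemias driven by AE9a, a shortened AML1-ETO fusion protein of acute myeloid leukemia, and carried GFP, floxed Usp18 and UBCER-Cre, a ubiquitously expressed recombinase that tamoxifen activates. They were transplanted into recipient mice, which received oil or tamoxifen once sick, and GFP+ Lin- c-Kit+ spleen cells were sorted 3 days after the first injection. Each group is 1 library made from a pool of 3 mice. The sample labels give the cells as Usp18f/f UBCER-Cre, with both Usp18 alleles floxed, but the treatment protocol text gives a heterozygous genotype. The groups are therefore named by injection, and leukemia cells of oil-injected mice carried the same floxed gene and Cre.

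In G1, mitogens raise D-type cyclins, which pair with CDK4 and CDK6 and begin to phosphorylate the retinoblastoma protein (RB). E2F factors freed from RB then turn on the genes of S phase, among them the E-type cyclins, which activate CDK2. Cyclin A2 acts through S phase and into G2 with CDK2 and CDK1, and cyclins B1 and B2 with CDK1 drive mitosis, after which they are degraded. p27 binds cyclin E and cyclin A complexes with CDK2 and rises in resting cells, and p18 is an INK4 protein that binds CDK4 and CDK6. In blood-forming cells, cyclins D2 and D3 are the D-type cyclins in common use.

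Transcripts were counted by unique molecular identifiers (UMIs) at the 3′ end, summed over cells and given as CPM, the UMIs of a gene per 1000000 UMIs of all genes. Such levels are not scaled to transcript length, so levels are compared within a gene and not between genes. Kept cells had 500 or more genes and no more than 10% of mitochondrial UMIs. This left 6838 of 7774 barcodes and 66045700 UMIs in the oil-labelled library, and 6472 of 7311 barcodes and 60661486 UMIs in the tamoxifen-labelled library. The libraries share 14 barcodes. Usp18 was higher with tamoxifen, the injection that should delete it, at 5.62 and 15.4 CPM with a log2 ratio of 1.45 (1.28 to 1.63), the opposite of a loss. UMIs come from the 3′ end and were not shown to lie in the deleted part of Usp18, which is itself induced by interferon, so this level does not check the labels, and directions between libraries refer to the labels as given. Kit, the receptor of the sort, had 171 and 232 CPM, and Isg15, another interferon-induced gene, had 47.8 and 113 CPM. USP18 restrains interferon signalling, so the direction of Isg15 is the one that the tamoxifen label leads to. Of the markers of other cells, a mast cell and basophil list summed to 2394 and 2018 CPM and an erythroid list to 7241 and 8165 CPM, with every gene of both detected. Granulocyte, T and NK cell, B cell and endothelial lists each summed to under 1 CPM in both libraries, monocyte and macrophage genes to 10.7 and 11.4 CPM, megakaryocyte genes to 7.12 and 9.79 CPM, and the myeloid genes S100a8, Ly6g and Elane had no UMI. With 1 library per group no test could be made and no p-value is given. Intervals in parentheses are at 95%, exact Poisson for levels, exact conditional binomial for ratios and exact Clopper-Pearson for shares of cells, and they cover counting error only.

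Each cell was placed in a cell cycle class from scores of 41 S phase and 47 G2M genes, none of which is among the 10 genes or among the other pathway genes counted below. Cells with neither score above 0 are called G0/G1, and the others take the class of the higher score. The classes are ranges of a score and not cell types: between 15.8% and 43.3% of the cells of a class had an S or G2M score within 0.05 of 0. This share does not cover the border between S and G2M cells, where both scores are equal. G0/G1 held 44.6% (43.4% to 45.9%) of 6330 scored cells in the oil-labelled library and 58.1% (56.9% to 59.4%) of 6127 in the tamoxifen-labelled library. S held 21.5% (20.5% to 22.6%) and 14.6% (13.7% to 15.5%), and G2M held 33.8% (32.6% to 34.99%) and 27.2% (26.1% to 28.4%). The tamoxifen-labelled library therefore had 13.5 percentage points more G0/G1 cells and fewer of the other classes. Its S and G2M cells also had lower scores, with a median G2M score of 0.305 in G2M cells against 0.355 and a median S score of 0.191 in S cells against 0.216. S and G2M cells held more RNA, with class medians between 12429 and 13204 UMIs against 6076.5 and 6498.5 in G0/G1 cells.

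Among the D-type cyclins, Ccnd2 varied little over the cycle. Ccnd2 (ENSMUSG00000000184, chr6:127125162-127152193, minus strand, GENCODE M21 on GRCm38) encodes cyclin D2. The oil-labelled library had 436 CPM (427 to 446) in G0/G1 cells, 489 CPM (478 to 499) in S cells and 517 CPM (509 to 526) in G2M cells. With tamoxifen the levels were 434 CPM (426 to 443) in G0/G1 cells, 467 CPM (455 to 479.7) in S cells and 479.9 CPM (471 to 489) in G2M cells. The order G0/G1, S, G2M was the same in both, with S and G2M cells of the tamoxifen-labelled library overlapping in their intervals. G2M cells were 1.19-fold and 1.10-fold above G0/G1 cells, so Ccnd2 made up a similar share of the UMIs in each class. Per cell, which also counts the larger RNA content of cycling cells, it had 2.88, 6.17 and 7.06 UMIs under oil.

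Ccnd3 (ENSMUSG00000034165, chr17:47505051-47599691, plus strand) encodes cyclin D3 and had the opposite order. It was highest in G0/G1 cells in both libraries, with 217 CPM (210.5 to 224) in G0/G1 cells, 146 CPM (140.0 to 151) in S cells and 136 CPM (132 to 140.3) in G2M cells under oil. Under tamoxifen it had 201 CPM (195 to 206) in G0/G1 cells, 149 CPM (142 to 156) in S cells and 141 CPM (136 to 146) in G2M cells. S cells were 1.49-fold lower than G0/G1 cells in the oil-labelled library and 1.35-fold lower in the tamoxifen-labelled library. The intervals of these log2 ratios overlap, and G2M cells were 1.07-fold below S cells under oil and did not differ from them beyond counting error under tamoxifen. The order holds for the share of UMIs. In UMIs per cell, Ccnd3 was lowest in G0/G1 cells, with 1.43, 1.84 and 1.86 under oil and 1.46, 1.99 and 1.86 under tamoxifen. Near its 3′ end Ccnd3 overlaps Bysl on the opposite strand.

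Ccnd1 (ENSMUSG00000070348, chr7:144929931-144939925, minus strand), the cyclin D1 gene, was nearly absent. Over all kept cells 76 UMIs were counted under oil and 81 under tamoxifen, or 1.15 CPM (0.907 to 1.44) and 1.34 CPM (1.06 to 1.66). Within classes it stayed under the minimum of 100 UMIs used for counts. Under oil it had 2.25 CPM (1.62 to 3.04) in G0/G1 cells, 0.581 CPM (0.278 to 1.07) in S cells and 0.788 CPM (0.499 to 1.18) in G2M cells. The same 3 classes of the tamoxifen-labelled library had 1.66 CPM, 1.001 CPM and 1.14 CPM, with intervals that overlap. G0/G1 cells were highest in both, and no difference from the other classes was detectable at this depth in the tamoxifen-labelled library.

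The E-type cyclins, partners of CDK2 at the entry to S phase, had their highest level in S cells. Ccne1 (ENSMUSG00000002068, chr7:38097984-38107534, minus strand) had 643 and 437 UMIs in the libraries labelled oil and tamoxifen. Oil-injected mice gave 0.804 CPM (0.450 to 1.33) in G0/G1 cells, 23.6 CPM (21.4 to 26.0) in S cells and 7.43 CPM (6.47 to 8.49) in G2M cells. Tamoxifen-injected mice gave 0.849 CPM (0.532 to 1.29) in G0/G1 cells, 21.7 CPM (19.1 to 24.5) in S cells and 6.95 CPM (5.89 to 8.14) in G2M cells. S cells were 29.4-fold above G0/G1 cells in the first and 25.6-fold above in the second, although 15 and 22 UMIs lie behind the G0/G1 levels.

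Ccne2 (ENSMUSG00000028212, chr4:11191351-11204779, plus strand), which encodes cyclin E2, had the same order of classes. Its levels were 3.11 CPM (2.36 to 4.02) in G0/G1 cells, 28.1 CPM (25.7 to 30.7) in S cells and 8.66 CPM (7.63 to 9.80) in G2M cells under oil. They were 1.97 CPM (1.47 to 2.59) in G0/G1 cells, 26.0 CPM (23.2 to 29.1) in S cells and 7.27 CPM (6.18 to 8.48) in G2M cells under tamoxifen. S cells exceeded G0/G1 cells 9.05-fold and 13.2-fold. For both genes, no interval of a class overlapped that of another class in either library. Ccne2 overlaps Ints8 on the opposite strand at its 3′ end, whereas no copy or overlap was found for Ccne1.

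To compare cells at 1 depth, each cell was thinned to 3000 UMIs. A Ccne1 UMI was then found in 6.60% of S cells and 0.248% of G0/G1 cells in the oil-labelled library, and in 6.03% and 0.253% in the tamoxifen-labelled library. Without thinning the S cell shares were 22.9% and 21.8%. A Ccnd2 UMI was found in 61.3% of thinned G0/G1 cells in the oil-labelled library and 61.4% in the tamoxifen-labelled library. The share due to free RNA was not estimated, so a low share such as that of Ccne1 in G0/G1 cells cannot be told apart from background.

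Cyclin A2 and the B-type cyclins were highest in G2M cells and lowest in G0/G1 cells, with S cells between them. Promoters of the B-type cyclins are shown with those of Ccne1 and Cdkn1b, since these genes differ in the class of their highest level. The sequences are RefSeq promoters of GRCm38.p6, written 5′ to 3′ on the strand of the gene and cut to bases outside annotated exons. Entries were found for 6 of the 10 genes. Capitals mark the letters CCAAT, the element bound by NF-Y, and TTTGAA, the letters of the cell cycle homology region (CHR) that binds DREAM and MYB complexes.
Ccnb2 (chr9:70421555-70421804, minus strand): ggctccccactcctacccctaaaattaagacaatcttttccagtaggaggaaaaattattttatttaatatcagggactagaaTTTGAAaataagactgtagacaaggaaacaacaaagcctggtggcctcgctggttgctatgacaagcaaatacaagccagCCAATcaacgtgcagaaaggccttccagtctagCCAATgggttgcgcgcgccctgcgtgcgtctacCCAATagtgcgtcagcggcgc
Ccnb1 (chr13:100786571-100786736, minus strand): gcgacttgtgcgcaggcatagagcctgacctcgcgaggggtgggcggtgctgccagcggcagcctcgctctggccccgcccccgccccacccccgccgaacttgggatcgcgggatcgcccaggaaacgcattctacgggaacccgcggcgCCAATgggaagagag
Ccne1 (chr7:38107535-38107740, minus strand): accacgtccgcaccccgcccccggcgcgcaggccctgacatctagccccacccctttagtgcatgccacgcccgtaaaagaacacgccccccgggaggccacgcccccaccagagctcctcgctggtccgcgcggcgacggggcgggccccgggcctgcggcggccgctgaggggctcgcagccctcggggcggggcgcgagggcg
Cdkn1b (chr6:134920151-134920400, plus strand): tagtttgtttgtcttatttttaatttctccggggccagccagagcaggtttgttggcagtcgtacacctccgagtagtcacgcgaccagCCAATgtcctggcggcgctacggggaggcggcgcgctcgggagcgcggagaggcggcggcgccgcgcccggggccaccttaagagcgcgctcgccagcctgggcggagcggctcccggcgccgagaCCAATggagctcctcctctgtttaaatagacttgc
The 250 bases before each start were searched on both strands. Ccnb2 holds CCAAT with its first base 87, 54 and 21 bases before the start, and TTTGAA from 167 bases before it. Ccnb1 holds CCAAT 99 and 67 bases before the start, of which the nearer lies in an annotated exon and is not printed. Cdkn1b, the p27 gene, holds it 161 and 35 bases before the start. Ccne1 and Cdkn2c hold neither, 1 of the promoters of Ccnd3 holds 1 CCAAT, and the E2F letters TTTCCCGC, TTTCGCGC, TTTGCCGC and TTTGGCGC were in none of these promoters. Over 32851 promoters of the same length, 33.8% hold CCAAT, 10.1% hold it at least 2 times, 16.0% hold TTTGAA and 1.86% hold the E2F letters, so a single CCAAT is common. A match describes these letters and is not a binding site.

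Ccna2 (ENSMUSG00000027715, chr3:36564865-36572150, minus strand), the cyclin A2 gene, had 11.8 CPM (10.3 to 13.5) in G0/G1 cells, 69.3 CPM (65.4 to 73.3) in S cells and 199.9 CPM (195 to 205) in G2M cells in the oil-labelled library. Under tamoxifen Ccna2 had 9.80 CPM (8.63 to 11.1) in G0/G1 cells, 56.6 CPM (52.5 to 61.1) in S cells and 184 CPM (178 to 189) in G2M cells. G2M cells were 16.9-fold and 18.7-fold above G0/G1 cells. Ccna2 overlaps Exosc9 on the opposite strand at its 3′ end.

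Ccnb1 (ENSMUSG00000041431, chr13:100778650-100786570, minus strand) encodes cyclin B1, the main mitotic partner of CDK1. The oil-labelled library had 7.34 CPM (6.16 to 8.68) in G0/G1 cells, 43.2 CPM (40.2 to 46.4) in S cells and 219 CPM (214 to 225) in G2M cells. The tamoxifen-labelled library had 6.48 CPM (5.54 to 7.54) in G0/G1 cells, 33.0 CPM (29.9 to 36.5) in S cells and 188 CPM (182 to 194) in G2M cells. G2M cells stood 29.9-fold and 29.0-fold above G0/G1 cells. Thinned to 3000 UMIs, 39.9% and 37.3% of G2M cells had a Ccnb1 UMI against 2.09% and 1.74% of G0/G1 cells.

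Ccnb2 (ENSMUSG00000032218, chr9:70407692-70421547, minus strand), the cyclin B2 gene, was less closely bound to G2M cells. It had 50.6 CPM (47.4 to 53.9) in G0/G1 cells, 127 CPM (122 to 132) in S cells and 265 CPM (259.6 to 271) in G2M cells in the oil-labelled library. Tamoxifen cells had 34.6 CPM (32.3 to 36.9) in G0/G1 cells, 101 CPM (95.1 to 107) in S cells and 239 CPM (233 to 246) in G2M cells. G2M cells exceeded G0/G1 cells 5.25-fold and 6.93-fold, a smaller ratio than those of Ccna2 and Ccnb1 in the same library, with intervals that do not overlap theirs.

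The inhibitor Cdkn1b (ENSMUSG00000003031, chr6:134920401-134925513, plus strand) was highest in G0/G1 cells and lowest in S cells. The oil-labelled library had 119.8 CPM (115 to 125) in G0/G1 cells, 42.6 CPM (39.6 to 45.8) in S cells and 64.0 CPM (61.1 to 66.9) in G2M cells. The tamoxifen-labelled library had 117 CPM (113 to 121) in G0/G1 cells, 40.7 CPM (37.2 to 44.5) in S cells and 75.9 CPM (72.3 to 79.6) in G2M cells. G0/G1 cells were 2.81-fold and 2.88-fold above S cells, and G2M cells lay between the other classes with intervals apart from both. In UMIs per cell S cells were still lowest, with 0.791 in G0/G1, 0.538 in S and 0.873 in G2M cells under oil and 0.853, 0.545 and 1.001 under tamoxifen, and G2M cells were highest.

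Cdkn2c (ENSMUSG00000028551, chr4:109660876-109667189, minus strand), the p18 gene, varied less and was highest in G2M cells. Under oil Cdkn2c had 67.3 CPM (63.6 to 71.1) in G0/G1 cells, 59.1 CPM (55.5 to 62.8) in S cells and 81.4 CPM (78.2 to 84.8) in G2M cells. Its tamoxifen levels were 64.2 CPM (61.2 to 67.4) in G0/G1 cells, 51.4 CPM (47.4 to 55.6) in S cells and 80.1 CPM (76.4 to 83.9) in G2M cells. S cells were lowest in both, although in the oil-labelled library the S cell level was 1.14-fold below that of G0/G1 cells and this order turned under a stricter cell filter. By share of UMIs, the pair of inhibitors therefore shared their lowest class and differed in their highest. In UMIs per cell this did not hold. Cdkn2c was then lowest in G0/G1 cells, with 0.444 in G0/G1, 0.746 in S and 1.11 in G2M cells under oil. Under tamoxifen it had 0.467, 0.688 and 1.06, and both inhibitors were highest in G2M cells.

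**Figure D1:**
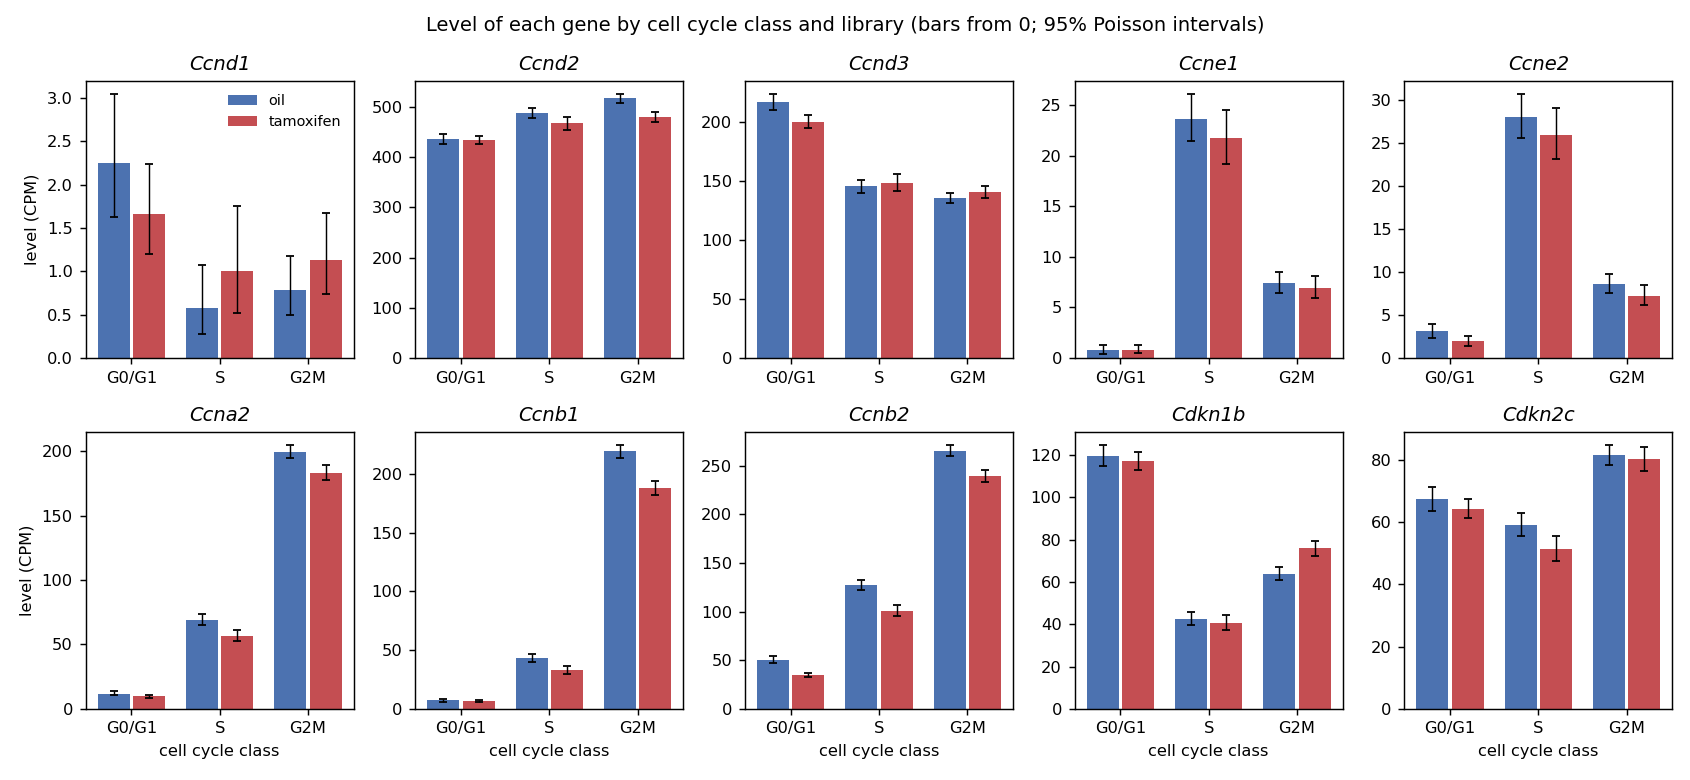
Level of each of the 10 genes in CPM, on axes that start at 0, in G0/G1, S and G2M cells of the libraries labelled oil (blue) and tamoxifen (red). Black lines are 95% Poisson intervals and cover counting error only. E-type cyclins are highest in S cells, cyclins A2 and B in G2M cells, and Ccnd3 and Cdkn1b in G0/G1 cells, in both libraries.

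Over all genes of a library, 5 of the 9 genes past the UMI minimum were at least 2-fold above G0/G1 cells in S cells, and 5 of 9 in G2M cells: Ccne1, Ccne2, Ccna2, Ccnb1 and Ccnb2 in every case. The share of all genes past this fold was 7.98% for S and 7.85% for G2M cells in the oil-labelled library, and 7.96% and 6.86% in the tamoxifen-labelled library. Ccnd3 and Cdkn1b were lower than in G0/G1 cells in both classes and both libraries. The classes and these levels were read in the same cells, so the counts describe an order and test nothing.

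A finer order was seen when cells were split by the sign of both scores, a split chosen after seeing the data. Cells with both scores above 0 made up 30.5% of the oil-labelled library and 19.8% of the tamoxifen-labelled library. From cells with neither score above 0, through the S score alone and both, to the G2M score alone, Ccne1 had 0.804, 16.6, 18.0, 1.55 CPM in the oil-labelled library and 0.849, 14.4, 17.8, 2.15 CPM in the tamoxifen-labelled library. Ccnb1 had 7.34, 23.7, 139, 256 CPM and 6.48, 19.6, 115, 214 CPM over the same steps. Ccna2 had 11.8, 33.2, 153, 209 CPM and 9.80, 27.8, 142, 183 CPM. The E-type cyclins thus had a low level in cells with the G2M score alone, while Ccna2 and the B-type cyclins were highest there, and Ccna2 had reached a larger part of its highest level than Ccnb1 in cells with both scores. Cdkn1b had 119.8, 46.1, 46.9, 81.8 CPM and 117, 45.7, 53.2, 87.8 CPM, lowest in the classes where the E-type cyclins were highest. Ccnd2 was highest in cells with both scores above 0, at 532 and 501 CPM.

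**Figure D2:**
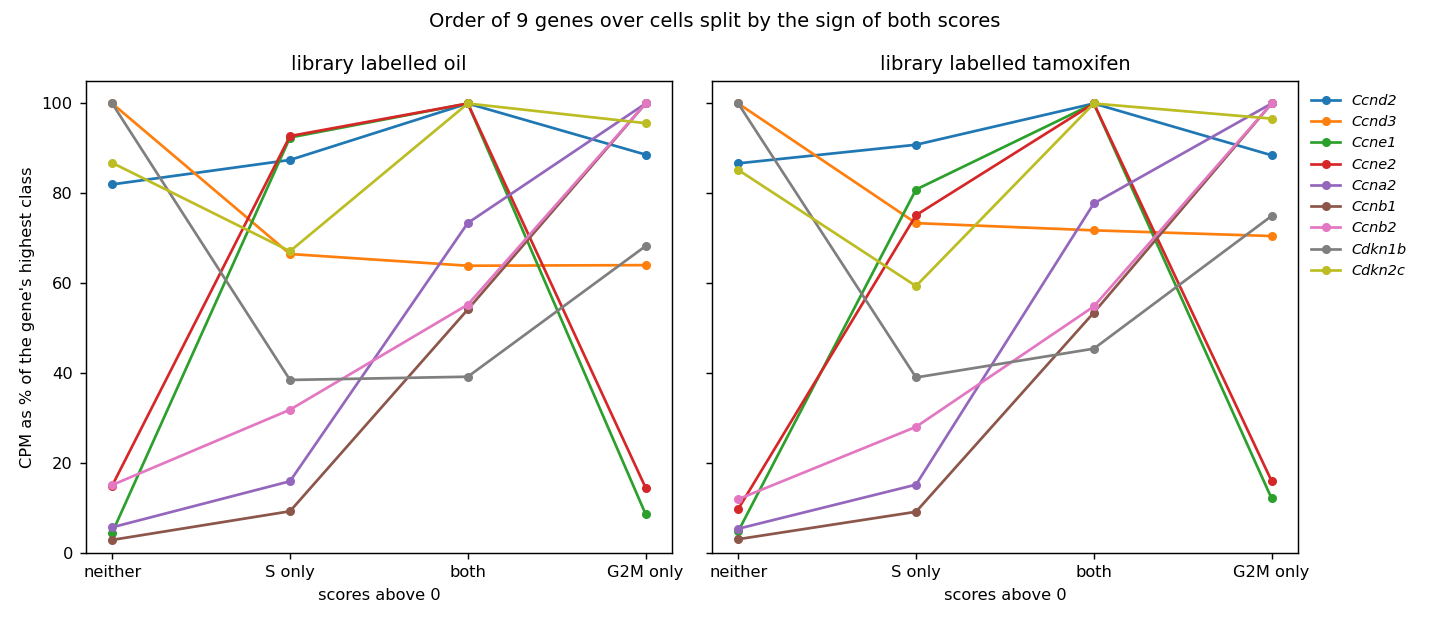
Level of 9 genes (Ccnd1 left out for few UMIs) as a percentage of the highest class of the same gene, in cells with neither score above 0, the S score alone, both scores, and the G2M score alone, for the library labelled oil (left) and tamoxifen (right). Ccne1 and Ccne2 are highest with both scores, but not beyond counting error over the S score alone. Ccna2, Ccnb1 and Ccnb2 are highest with the G2M score alone, and Ccnd3 and Cdkn1b with neither.

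Between libraries, summed over all kept cells, the E-type, A-type and B-type cyclins were lower in the tamoxifen-labelled library and Cdkn1b was higher. Past a log2 ratio of 0.32 in size, the limit used for counts, 5 of the 10 genes were lower and 0 were higher, against 10.7% lower and 6.79% higher among the 10527 genes for which the libraries together had 100 or more UMIs. The median log2 ratio was -0.26 over the 10 genes and -0.063 over all genes. The former lies midway between Ccna2 at -0.43 and Cdkn2c at -0.091, with no gene between them. Ccnb1 had the lowest ratio, with 7345 UMIs or 111 CPM (109 to 114) in the oil-labelled library, 4724 UMIs or 77.9 CPM (75.7 to 80.1) in the tamoxifen-labelled library, and a log2 ratio of -0.51 (-0.57 to -0.46).

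The other genes of S phase and mitosis had similar ratios. Ccna2 had 111 CPM (108 to 113) and 82.3 CPM (80.1 to 84.6), a log2 ratio of -0.43 (-0.48 to -0.38). Ccnb2 had 166 CPM (163 to 169) and 122 CPM (119 to 125), a log2 ratio of -0.44 (-0.49 to -0.40). The E-type cyclins followed at lower counts. Ccne1 had 9.74 CPM (9.00 to 10.5) and 7.20 CPM (6.54 to 7.91), or -0.43 (-0.61 to -0.26), and Ccne2 had 12.1 CPM (11.3 to 12.998) and 8.67 CPM (7.95 to 9.44), or -0.48 (-0.65 to -0.32). In the 673 and 771 cells left by a stricter filter (1000 or more genes, no more than 5% of mitochondrial UMIs), the log2 ratio of Ccnb1 was -1.03, that of Ccna2 -0.84 and that of Ccnb2 -0.71.

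Differences in the D-type cyclins and in the inhibitors Cdkn1b and Cdkn2c were smaller. Ccnd2 had 486 CPM (480.2 to 491) and 457 CPM (452 to 462), a log2 ratio of -0.087 (-0.11 to -0.064). Ccnd3 had 163 CPM (160.3 to 166) and 169 CPM (166 to 173), or 0.051 (0.012 to 0.090), and the ratio of Ccnd1 was 0.21 (-0.26 to 0.69), not a detectable difference. The inhibitors went apart. Cdkn1b had 75.8 CPM (73.7 to 77.9) and 88.1 CPM (85.8 to 90.5), a log2 ratio of 0.22 (0.16 to 0.27), whereas Cdkn2c had 71.8 CPM (69.7 to 73.8) and 67.4 CPM (65.3 to 69.5), or -0.091 (-0.15 to -0.031). With mitochondrial and ribosomal protein genes taken out of the total, the ratios of Ccnd2 and Cdkn2c were -0.0069 and -0.011, and that of Ccnd3 was 0.13.

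Because the share of G0/G1 cells differed, the ratios were also taken with equal class weights, in which both libraries are given the class make-up of their pooled UMIs (35.7% G0/G1, 23.4% S and 41.0% G2M), an addition chosen after seeing the data. The log2 ratio was then -0.24 (-0.29 to -0.18) for Ccnb1, -0.22 (-0.27 to -0.18) for Ccnb2 and -0.15 (-0.21 to -0.10) for Ccna2. All 3 were closer to 0 than over all cells and their intervals stayed below it. For Ccne2 it was -0.20 (-0.36 to -0.042) and for Ccne1 -0.11 (-0.28 to 0.069), and the latter interval includes 0. No gene was past 0.32 in size with these weights. Cdkn1b came to 0.063 (0.0054 to 0.12) and Cdkn2c to -0.071 (-0.13 to -0.0099). Ccnd3 turned direction, to -0.028 (-0.068 to 0.012), while Ccnd2 stayed at -0.064 (-0.087 to -0.040). The scores within S and G2M cells also differed between the libraries, as given above, and their part in the remaining differences was not tested.

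**Figure D3:**
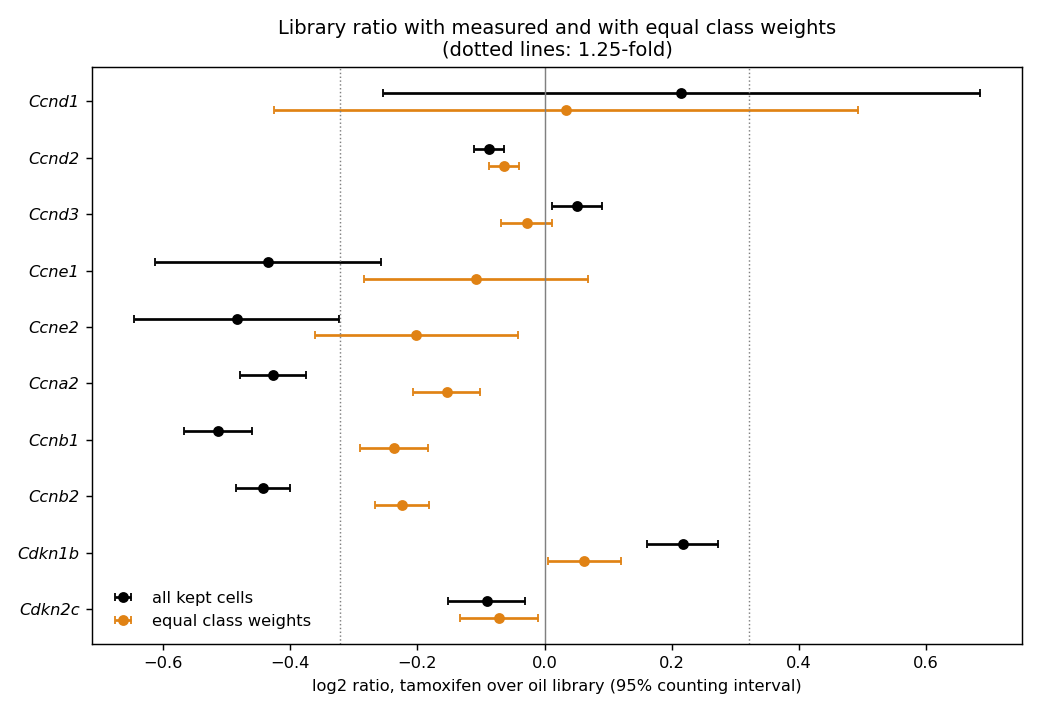
Log2 ratio of tamoxifen-labelled to oil-labelled library for each of the 10 genes, over all kept cells (black) and with equal class weights (orange), with 95% counting intervals; dotted lines mark 0.32 in both directions. Ccnb1 moves from -0.51 to -0.24 and Ccna2 from -0.43 to -0.15, and all 10 orange points lie between the dotted lines.

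Within G0/G1 cells, 8 of the 10 genes had at least 100 UMIs over both libraries. Of these, 2 were lower past 0.32 and 0 higher in the tamoxifen-labelled library, against 11.8% lower and 4.61% higher of all genes. They were Ccnb2, with 50.6 CPM (47.4 to 53.9) and 34.6 CPM (32.3 to 36.9) and a log2 ratio of -0.55 (-0.68 to -0.42), and Ccne2 at -0.66 (-1.23 to -0.091). Cdkn1b, for which this is the highest class, had a ratio of -0.032 (-0.11 to 0.047), and Ccnd2 had -0.0052 (-0.046 to 0.036). Neither differed beyond counting error, whereas Ccnd3 was lower at -0.11 (-0.17 to -0.055). Under the stricter filter named above 4 genes reached 100 UMIs in this class and 0 were lower past 0.32.

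Within S cells, 2 of 9 genes were lower by that fold and 0 higher, against 6.28% and 4.41% of all genes. Ccnb1 had a log2 ratio of -0.39 (-0.57 to -0.21) and Ccnb2 of -0.33 (-0.44 to -0.23). Ccna2 was close to them at -0.29 (-0.43 to -0.15), and the E-type cyclins, at their highest in this class, had -0.12 (-0.35 to 0.10) for Ccne1 and -0.11 (-0.32 to 0.097) for Ccne2, both with intervals that include 0. Cdkn2c was lower, at -0.20 (-0.35 to -0.055). Split by the sign of both scores, Ccnb1 had -0.27 (-0.66 to 0.10) with the S score alone and -0.28 (-0.35 to -0.20) with both scores above 0. Ccnb2 had -0.39 (-0.57 to -0.21) and -0.22 (-0.29 to -0.15) in the same cells. The part of this make-up in the ratios of the S class was not tested.

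Within G2M cells, 0 of 9 genes passed the fold in either direction, against 8.78% lower and 4.92% higher of all genes. Ccnb1 had a ratio of -0.22 (-0.28 to -0.17), Ccnb2 of -0.15 (-0.20 to -0.098) and Ccna2 of -0.12 (-0.18 to -0.065), so the mitotic cyclins were lower in the class where they are highest, by less than over all cells. Cdkn1b was higher in this class, at 64.0 CPM (61.1 to 66.9) and 75.9 CPM (72.3 to 79.6), a log2 ratio of 0.25 (0.15 to 0.34). Over all 3 classes its ratio was above 0 beyond counting error in G2M cells and in neither of the others. Split by the sign of both scores, the ratio of Cdkn1b was 0.10 (-0.025 to 0.23) in cells with the G2M score alone. In cells with both scores above 0, which lie in the S and G2M classes, it was 0.18 (0.059 to 0.30). The part of this make-up in the ratio of the G2M class was not tested.

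The rest of the pathway was taken from 8 lists of 61 genes, of which 58 had at least 100 UMIs. Of these, 16 were lower past 0.32 and 4 higher in the tamoxifen-labelled library, against 10.7% lower and 6.79% higher of all genes, so the 4 higher are near the share of all genes. The median log2 ratio was -0.20 against -0.063 over all genes. The counts of single lists below are to be read against the same shares. The 4 cell cycle kinases were all below 0. Cdk1, the kinase of cyclin B, had 139 CPM (136 to 142) and 95.1 CPM (92.7 to 97.6), a log2 ratio of -0.55 (-0.59 to -0.50). Cdk4, the partner of cyclin D, had -0.37 (-0.42 to -0.32), Cdk2 had -0.26 (-0.36 to -0.15) and Cdk6, the other partner of cyclin D, -0.042 (-0.073 to -0.011).

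Other inhibitors of the KIP and INK families had 1 of 4 measured genes lower and 1 higher. Cdkn1a (p21), which stops CDK2 complexes after damage signals, had 84.2 CPM (82.0 to 86.5) and 124 CPM (121 to 127), a log2 ratio of 0.56 (0.51 to 0.61). It was higher within each class, at 0.37 (0.30 to 0.44) in G0/G1 cells, 0.40 (0.28 to 0.52) in S cells and 0.57 (0.48 to 0.66) in G2M cells. Cdkn2a had 176 and 127 UMIs and a ratio of -0.35 (-0.69 to -0.011), and Cdkn1c had 67 and 51 UMIs with a ratio of -0.27 (-0.83 to 0.28). Cdkn2d, another INK4 gene, had 0.014 (-0.054 to 0.082), and Cdkn2b was below the minimum with 31 and 16 UMIs. The inhibitors thus did not share a direction.

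Of the other cell cycle cyclins 2 of 3 measured were higher and 1 lower. Ccng2, a cyclin of arrested cells, had the highest ratio at 0.49 (0.35 to 0.62) and Ccnf, which marks proteins for degradation in G2, the lowest at -0.36 (-0.48 to -0.24). Ccna1 and Ccnb3, cyclins of germ cells, had no UMI in either library. Among 13 genes of RB and E2F, 3 were lower and 1 higher, beside 10.7% and 6.79% of all genes, from -0.46 (-0.54 to -0.38) for E2f8, a repressor of S phase genes, to 0.41 (0.27 to 0.54) for Tfdp2, a dimer partner of E2F. Phosphatases and inhibitory kinases of CDKs ranged from -0.67 (-0.81 to -0.54) for Pkmyt1, which holds CDK1 inactive, to -0.13 (-0.18 to -0.081) for Cdc25b, which activates it, and 3 of 5 were lower past 0.32.

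Genes that degrade cyclins and inhibitors had 4 of 10 lower, from -0.50 (-0.53 to -0.47) for Ube2c, the ubiquitin carrier of the anaphase-promoting complex, to 0.17 (0.11 to 0.23) for Btrc, a substrate receptor of SCF ubiquitin ligases. DREAM and MYB genes had 2 of 7 lower, from -0.44 (-0.54 to -0.34) for Mybl2, an activator of mitotic genes, to -0.12 (-0.23 to -0.015) for Lin54, a DNA-binding part of the complex. Cyclins and kinases of transcription, which serve RNA polymerase II rather than steps of the cycle, had 0 of 12 past the fold and a median of -0.042, between -0.25 (-0.37 to -0.12) for Ccnc and 0.14 (0.078 to 0.21) for Ccnt1.

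**Figure D4:**
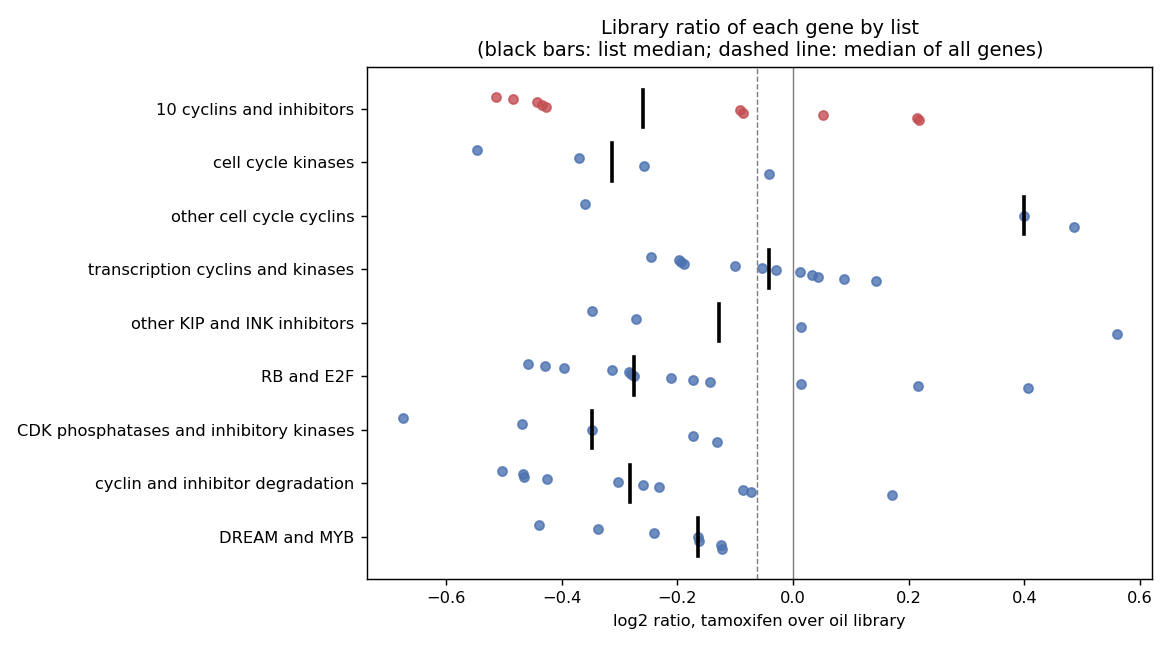
Log2 ratio of tamoxifen-labelled to oil-labelled library for each gene with at least 100 UMIs, by list; red points are the 10 cyclins and inhibitors, black bars are list medians and the dashed line is the median of all genes, -0.063. Kinases and degradation genes lie mostly below the dashed line, and transcription cyclins lie around it.

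Cells of both libraries were grouped into 8 clusters from variable genes that exclude the 10 genes, the pathway, cell cycle and interferon lists and genes that differ 1.5-fold between libraries. Clusters are given by number and leading genes. Clusters 0 (Cyp11a1, Klf2, S100a6) and 4 (Cx3cr1, Cpa3, Creb3l1) were mostly G0/G1 cells, at 93.2% and 92.7%, but differed in their G1 regulators. The mast cell genes Mcpt4 and Mcpt1 were among the 10 leading genes of cluster 0, and Cpa3, of the same marker list, leads cluster 4. Cluster 0 held 25.4% of kept cells under oil and 19.4% under tamoxifen, and cluster 4 held 11.8% and 17.0%. Their part in the ratios between libraries was not tested. Ccnd2 had 423 CPM (413 to 433) in cluster 0 and 285 CPM (275 to 294) in cluster 4. Ccnd3 had 262 CPM (254 to 270.1) and 175 CPM (167 to 182), and Cdkn1b had 154 CPM (148 to 161) and 114 CPM (108 to 120.3). All 3 were lower in cluster 4, whereas Cdkn2c did not differ beyond counting error, at 64.5 CPM (60.6 to 68.5) and 66.1 CPM (61.6 to 70.8).

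Ccnd3 and Cdkn1b both had their highest level in cluster 0. Between libraries, Cdkn1b was higher with tamoxifen beyond counting error in cluster 3 alone, at a log2 ratio of 0.27 (0.13 to 0.41). In every other cluster its interval included 0. Ccnd2 was lowest in cluster 4 and highest in cluster 1 (Hells, Ung, 2610318N02Rik), at 562 CPM (553 to 570.4). Cdkn2c was highest in cluster 3 (Hist1h1b, Hist1h2ab, Hist1h1a) among clusters of at least 500 cells, at 96.8 CPM (93.5 to 100.2). Ccnb1 ranged from 6.11 CPM (4.81 to 7.66) in cluster 4 to 188 CPM (178 to 199) in cluster 6 (Tppp3, Anxa2, Myadm) and 184 CPM (179 to 189) in cluster 3, the neighbours 6 and 3 not differing beyond counting error. Cluster 2 (Cpvl, 1700016F12Rik, Oasl2) had 58.0% G0/G1 cells and 19.8 CPM (18.0 to 21.8) of Ccnb1. Cluster 5 (Gm15892, Snhg10, Rtp4) held 37 cells of the oil-labelled library and 1108 of the tamoxifen-labelled library, with 128 CPM (121 to 135) of Cdkn1b and 88.5 CPM (82.5 to 94.7) of Ccnb1 in the latter. Cluster 7 (H2-Q7, Gimap1, Ulk4) had a median of 1036 UMIs per cell and gives wide intervals.

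**Figure D5:**
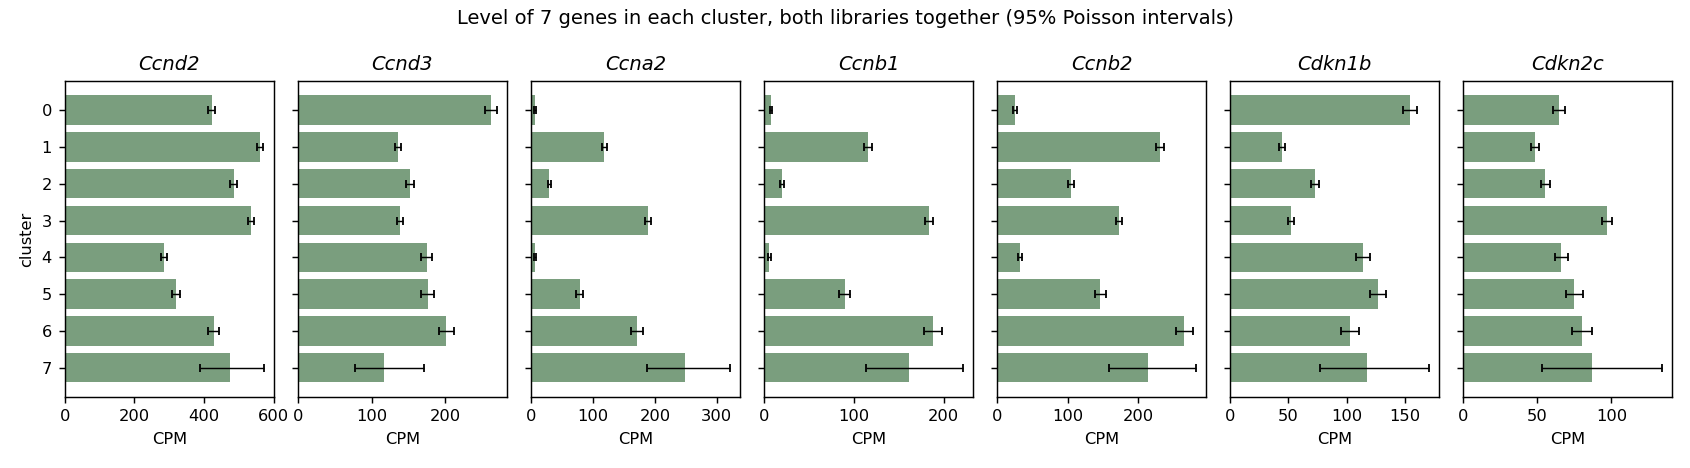
Level in CPM of 7 genes in each of 8 clusters, both libraries together, with 95% Poisson intervals. Ccnd3 and Cdkn1b are highest in cluster 0, Ccnd2 is lowest in cluster 4, and Ccna2, Ccnb1 and Ccnb2 are lowest in clusters 0 and 4. Cluster 7 holds 189 cells with few UMIs.

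The genes most like each gene in pattern were found among 6001 genes over 14 groups of cluster and library with at least 100 cells, by Pearson r of log2(CPM + 1). Groups share libraries, clusters and depth, and r is a description. Ccnb1 was most like Cdc20 (r = 0.996), Cdca8 (0.992) and Birc5 (0.991), all genes of chromosome segregation. Ccna2 was most like Birc5 (r = 0.994), Nucks1 (0.992) and Cenpn (0.991), and Ccnb2 like Cenpa (r = 0.977), Hmgb1 (0.977) and Cenpk (0.972). Cdkn2c was most like linker and core histone genes, Hist1h1e (r = 0.930), Hist1h3e (0.892) and Hist1h1d (0.884). Ccnd3 was most like Max (r = 0.978), Ppm1b (0.974) and Gucd1 (0.974), Cdkn1b like Pik3ca (r = 0.984), Arhgef12 (0.984) and Tet2 (0.981), and Ccnd2 like Pop5 (r = 0.928), Col5a1 (0.923) and Cldn13 (0.908).

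Barcodes that failed the cell filter, 936 and 839 of them, had the same direction for the mitotic cyclins. Ccnb1 had 60.3 CPM (53.1 to 68.2) and 37.1 CPM (31.6 to 43.3) in them, a log2 ratio of -0.70 (-0.995 to -0.41), Ccnb2 had a ratio of -0.75 (-0.99 to -0.52) and Ccna2 of -0.52 (-0.80 to -0.24). For the other 7 genes the interval included 0, and for Cdkn1b the ratio was 0.010 (-0.18 to 0.20).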

How the data were processed

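Sorted GFP+ Lin- c-Kit+ spleen cells of the oil and tamoxifen groups were profiled with the Chromium V3 3′ kit, 1 library of 3 pooled mice each. The authors mapped the reads to mm10 with Cell Ranger 3.0.2, per the methods, the submitters' notes and the file headers, and deposited matrices of UMI counts per gene and cell. The values were used as deposited, with no normalization. Seurat is named by the submitters for later steps and its settings were not used here.

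Barcodes with 500 or more genes and mitochondrial UMIs of 10% or less were kept, and counts were summed per library. Scrublet (in scanpy) called 5 and 0 doublets and so did not work. No doublets were removed. Classes come from scanpy scores on cells thinned to 3000 UMIs, without the 508 and 345 cells below that depth, with the S and G2M lists of the Seurat package in mouse symbols. Clusters are Leiden clusters of merged, unintegrated cells (2000 variable genes, 20 components, 15 neighbours, resolution 0.5). Ratios, class and pathway counts use genes with at least 100 UMIs over the cells compared. The named genes are the 10 cyclins and inhibitors, the 4 cell cycle kinases, the other KIP and INK genes, the highest and lowest gene of each pathway list, the 3 genes most like each gene with at least 20 CPM, the 3 leading genes of each cluster, and Usp18, Isg15 and Kit as checks. S100a8, Ly6g and Elane, Mcpt4 and Mcpt1, and Ccna1 and Ccnb3 were named after their values were seen.

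The genes and lists were chosen with earlier results of these data known. Ratios and intervals were tested on simulated counts. Alternatives were other cell filters, scaling by TMM (edgeR 4.0.16) or median ratios (DESeq2 1.42.0), other totals, weights, thinning depths and cluster resolutions. Positions come from GENCODE M21 on GRCm38, in which 30934 of 31053 identifiers were found. The last 500 bases of each gene were searched for copies in other transcripts with blastn 2.17.0 at 90% identity over at least 90 bases. Overlaps were on the opposite strand only, with Bysl, Ints8, Exosc9 and, for Ccnd1, a gene whose symbol is not among those counted. Whether counting used strand is not given in the sources used here, and without it reads of these pairs cannot be told apart. Scores and clusters were made with scanpy 1.11.5, intervals with scipy 1.17.1, figures with matplotlib 3.10.9, and scaling factors in R 4.3.3.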

Additional observations from a re-analysis of the deposited data

Results flagged for a closer look

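Within clusters of at least 100 cells per library, 3 of the genes had ratios of opposite direction in different clusters, each with a counting interval clear of 0. With 1 library per group the differences between clusters were not tested. With tamoxifen, Ccnd2 was higher in cluster 2 at a log2 ratio of 0.22 (0.16 to 0.27), cluster 4 at 0.19 (0.086 to 0.29) and cluster 6 at 0.35 (0.24 to 0.46), and lower in cluster 3 at -0.092 (-0.14 to -0.047). Its level in cluster 6 was 397 CPM (380.1 to 415) and 506 CPM (475 to 539). Ccnd3 was higher in cluster 2 at 0.19 (0.084 to 0.29) and lower in cluster 4 at -0.13 (-0.25 to -0.0048). Ccnb1 was higher in cluster 0 at 0.83 (0.29 to 1.37), where it had 53 and 71 UMIs. It was lower in cluster 1 at -0.46 (-0.56 to -0.35), cluster 2 at -0.47 (-0.76 to -0.18) and cluster 3 at -0.19 (-0.26 to -0.11). It was also lower in cluster 4 at -0.77 (-1.47 to -0.083), where it had 40 and 35 UMIs. Ccnb2 went the other way from Ccnb1 in cluster 0, at -0.48 (-0.78 to -0.18). Clusters hold the cell cycle classes in unequal parts, and the part of class make-up in these values was not tested.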

How the results depend on the processing

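No paired analysis was possible because oil and tamoxifen gave 1 library each. No replicate could be left out either, so no value here can be set against the spread between mice. Under 8 alternative cell filters, cell weights and scalings, each of the 10 ratios kept its direction, with Ccnb1 between -1.03 and -0.43 and Cdkn1b between 0.16 and 0.30 on the log2 scale. Over all alternatives, 60 of 90 ratios moved by less than their counting interval, 29 moved and 1 reversed: Ccnd3, to -0.028 with equal class weights. TMM and median-ratio scaling shifted every ratio by 0.043 and 0.039. The median of the 10 genes was -0.18, and that of the pathway -0.11, when the total left out ribosomal protein and mitochondrial genes, and the median of the genes with at least 500 UMIs was -0.43. The stricter filter (1000 or more genes, 5% or less of mitochondrial UMIs) left 673 and 771 cells, so that 4, 5 and 7 of the genes passed the UMI minimum within G0/G1, S and G2M cells. Under it, of the genes past the UMI minimum, 3 were lower past 0.32 over all cells, 0 within G0/G1 and 1 within G2M cells. By the same count, 1 gene was 2-fold higher in S cells and 3 in G2M cells of each library. Genes under the minimum were not counted. Ccne1 and Ccne2 still had ratios of -0.35 and -0.49 over all cells. Log2 ratios of S over G0/G1 cells under oil were 4.63 for Ccne1, 4.71 for Ccne2 and 3.73 for Ccna2. Those of Ccnb1 and Ccnb2 were 2.05 and 2.31. Only 1 of these genes passed the UMI minimum in this contrast, so the other ratios rest on few UMIs. The stricter filter put the difference in the G0/G1 share at 20.4 points and in the G2M share at -13.2 points. It also reversed the ratio of Cdkn2c in S over G0/G1 cells in the oil-labelled library to 0.031. Thinning to 5000 UMIs gave a G0/G1 difference of 16.7 points and 1 gene lower within G2M cells, and thinning to 2000 UMIs gave 4 lower within G0/G1 cells. Beyond the effect of the UMI minimum on the counts, the cause of these other values was not tested. Of 199 class contrasts, 154 moved by less than their interval. Levels of Ccnd1 rest on under 100 UMIs per library, and levels of Ccne1 and Ccne2 in G0/G1 cells on 15 to 58, which limits what they can show.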
